A study of Mus musculus with 2 samples.

Results

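The cytosolic ribosomal protein genes were compared in 7 cell classes between treatment-naive primary and cisplatin-treated chemoresistant tumours of a mouse ovarian cancer model. They were taken by symbol: all features named Rpl or Rps with a number, with an a, x or y where the name has it, plus Rplp0, Rplp1, Rplp2 and Rpsa. Pseudogene names ending in -ps and the paralog Rps27l were left out. The rule gave 77 genes of 33696 features, 31 for the small 40S subunit (the Rps names) and 46 for the large 60S subunit (the Rpl and Rplp names).

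Each cytosolic ribosome carries 1 copy of nearly all of these proteins around its ribosomal RNA, so cells make them in matched amounts. The 40S subunit reads the messenger RNA, and the 60S subunit joins amino acids and holds the acidic stalk of Rplp0, Rplp1 and Rplp2 that recruits elongation factors. Their messenger RNAs are short, abundant and mostly begin with a run of pyrimidines, the terminal oligopyrimidine (TOP) tract, through which the kinase complex mTORC1 and the RNA-binding protein Larp1 set their translation and stability. Resting lymphocytes carry a large share of such messages, and mature neutrophils a small share.

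ID8 is a transplantable line from mouse ovarian surface epithelium that grows in the peritoneal cavity of mice with an intact immune system. The study profiled fresh solid tumours of this model with droplet single-cell RNA sequencing (3′ v3 chemistry), as 1 library of treatment-naive primary tumours and 1 library of chemoresistant tumours of cisplatin-treated mice. Several tumours were pooled before loading in each case, and no age, strain or number of mice is given in the sources used here. With 1 pooled library in each group no difference could be tested: intervals below are 95% intervals of counting error only, and animals, batches and treatment cannot be told apart.

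After filtering, 12824 primary and 14908 chemoresistant barcodes remained, with medians of 5744 and 4634.5 unique molecular identifiers (UMIs, counted messenger molecules). The libraries shared 52 barcode sequences. A barcode took a cell class when at least 3 markers of that class were seen and every other class had at most 0.5 times as many. Classes with at least 100 cells in both libraries were tumour (179 primary and 1768 chemoresistant cells), mononuclear phagocyte (3045 and 4364), neutrophil (1340 and 668), dendritic (211 and 243), B (2970 and 2715), T (941 and 268) and fibroblast (245 and 295). Another 23.4% and 22.2% of barcodes carried too many markers of a further class and 5.15% and 7.53% carried too few, and neither kind entered a comparison. Barcodes in a class could still carry some markers of another. With no marker of another class at 2 or more UMIs, 510 primary phagocytes were called in place of 3045, and 646 primary B cells in place of 2970. Chemoresistant tumour cells went from 1768 to 302 and chemoresistant neutrophils from 668 to 550.

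Because the markers chose the cells, finding them in a class is no check of its name, but single markers show what a class held. In the tumour class, Krt18 was seen in 95.5% of primary and 96.8% of chemoresistant cells and Krt19 in 95.5% and 97.3%, while Wfdc2 was nearly absent (0.559% and 0.0566%). Upk3b was seen in 79.9% and 83.9% and Msln in 48.0% and 48.5%. Epcam was seen in only 38.5% and 31.6%, Cdh1 in 16.2% and 7.92% and Cldn7 in 6.70% and 0.170%. The mesothelial genes Lrrn4 or Gpm6a were seen in 71.5% and 73.6% of these cells, so tumour and mesothelial cells were not separated. Below, tumour cells means the cells of this class. In the fibroblast class, Col1a1 was seen in 93.1% and 97.6% of cells, but Mfap5 in 60.4% against 2.37%, Fbln1 in 56.3% against 3.05% and Dpt in 51.0% against 2.03%. The makeup of the fibroblast class thus differed between the libraries, and makeup and treatment cannot be told apart there. The proportions of B and T cells in which state genes were seen differed as well, as given below, and so did depth per cell.

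Sequences around the annotated transcription start show where runs of C or T lie near it; whether a run is the TOP tract of the messenger depends on the start used in these cells, which was not measured. RefSeq promoters (GRCm38.p6) were at hand for 57 of the 77 genes, each running from 250 bases before to 50 bases after the start. In the lines below, 25 bases on each side of the start are printed 5′ to 3′ on the gene's strand, for members the results turn on, and capitals mark the longest run of at least 8 C or T that begins within 30 bases of the start.
Rps27 (chr3:90213624-90213673, minus strand): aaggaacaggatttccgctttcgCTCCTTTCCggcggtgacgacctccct
Rps18 (chr17:33955641-33955690, minus strand): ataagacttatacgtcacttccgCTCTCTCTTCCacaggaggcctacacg
Rps24 (chr14:24490653-24490702, plus strand): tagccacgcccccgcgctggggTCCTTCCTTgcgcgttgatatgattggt
Rps9 (chr7:3704016-3704065, plus strand): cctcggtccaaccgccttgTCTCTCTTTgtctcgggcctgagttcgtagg
Rpl7a (chr2:26910782-26910831, plus strand): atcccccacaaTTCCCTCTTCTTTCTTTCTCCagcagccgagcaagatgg
Rpl31 (chr1:39367826-39367875, plus strand): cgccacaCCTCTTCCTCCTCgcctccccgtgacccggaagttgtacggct
Rps4x (chrX:102189367-102189416, minus strand): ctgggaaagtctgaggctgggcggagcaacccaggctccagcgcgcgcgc
Rpl12 (chr2:32961687-32961736, plus strand): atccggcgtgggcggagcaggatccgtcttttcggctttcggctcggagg
Rpsa (chr9:120127741-120127790, plus strand): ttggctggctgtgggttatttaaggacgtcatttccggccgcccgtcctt

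The run began 2 bases before the annotated start in Rps27 and Rps18, 3 before in Rps24, 6 before in Rps9, 14 before in Rpl7a and 18 before in Rpl31. The Rpl31 run thus ended before the annotated start. The annotated starts of Rps4x, Rpl12 and Rpsa had no such run within reach, which says only that these letters are not near the start given. Of the 57 promoters, 37 (64.9%) held a run, against 23.6% of 27025 promoters of the same length. A run that began within 5 bases of the start, a limit set after seeing the data, was held by 14 (24.6%), against 4.78% of all promoters. The ETS-type motif CCGGAAG, searched on both strands of the whole window and counted whether or not it overlapped another motif, was found in 23 (40.4%), against 9.12% of all promoters. GGGCGG stood in 59.6% against 35.9%, ATGGCGG in 15.8% against 4.19% and TATAAA in 8.77% against 14.2%, counted the same way.

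The share of messages given to ribosomal proteins set the cell classes apart in both libraries. In the primary library it was lowest in neutrophils, at 5.37% of UMIs (95% interval 5.35 to 5.40), and highest in B cells, at 23.6%. Between them came mononuclear phagocytes (12.9%), fibroblasts (13.7%), tumour cells (14.4%), dendritic cells (16.4%) and T cells (22.2%). In the chemoresistant library neutrophils were again lowest, at 11.2%, and B cells again highest, at 27.8%. There phagocytes (17.5%) and tumour cells (18.7%) were followed by fibroblasts (22.2%), T cells (22.9%) and dendritic cells (23.8%), so that dendritic cells and fibroblasts had moved up in the order. The gap between the lowest and the highest class was 18.3 percentage points in the primary and 16.7 in the chemoresistant library.

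**Figure D1:**
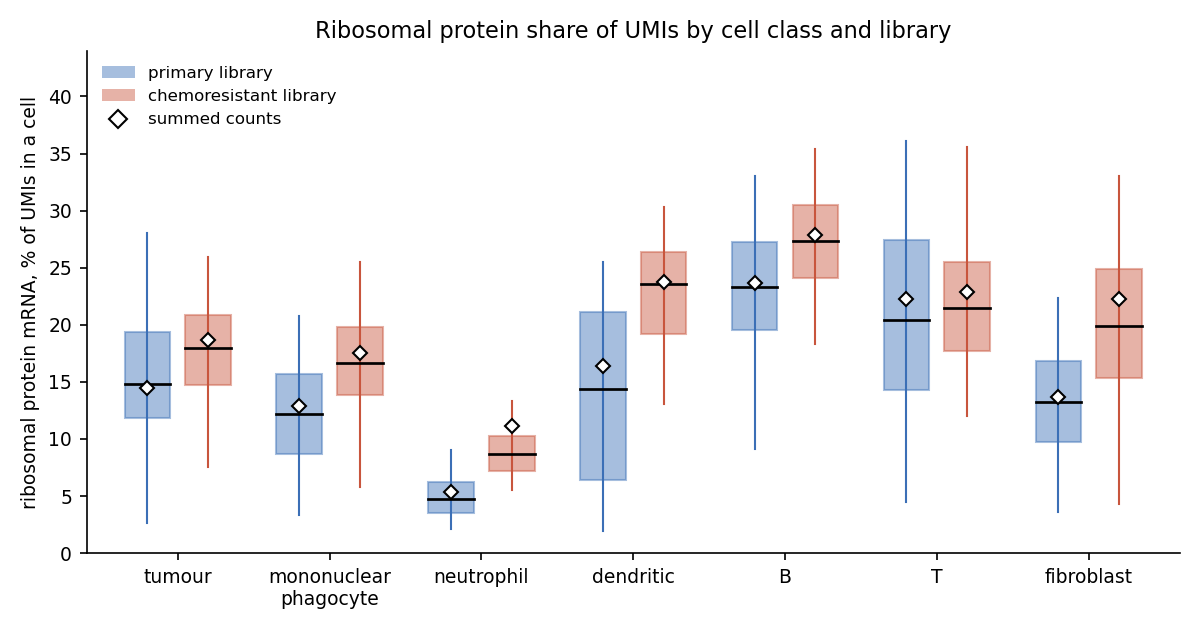
Share of UMIs from the 77 ribosomal protein genes in each cell (vertical axis, percent), by cell class and library. Boxes span the middle 50% of cells with the median as a line, whiskers run from the lowest 5% to the highest 5%, and diamonds give the share in summed counts. Neutrophils lie lowest and B cells highest in both libraries, and in each of the 7 classes the chemoresistant median lies above the primary median.

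All 7 classes had a higher summed share in the chemoresistant library, by 0.66 to 8.58 percentage points. The difference was 4.27 points in tumour cells, 4.60 in phagocytes, 5.79 in neutrophils, 7.39 in dendritic cells, 4.21 in B cells, 0.66 in T cells and 8.58 in fibroblasts. The sign did not hold for every choice of cells: the tumour difference was -1.57 with no marker of another class at 2 or more UMIs and -4.85 with 2000 to 10000 UMIs, and the T cell difference was -1.84 with at most 1% of UMIs from the nuclear RNA Malat1. The tumour difference was 2.35 as a mean over cells, 2.38 with cells thinned to 1000 UMIs and 2.79 in cells without Lrrn4 or Gpm6a. Cells without these 2 genes were also shallower, as given below. Without the 5% of cells with most UMIs the neutrophil difference was 3.65, and over the remaining alternatives the T cell difference ran from 0.159 to 1.68. The median cell moved the same way: from 14.9% to 18.0% in tumour cells, 12.2% to 16.6% in phagocytes, 4.75% to 8.69% in neutrophils, 14.4% to 23.5% in dendritic cells, 23.3% to 27.4% in B cells, 20.4% to 21.5% in T cells and 13.3% to 19.9% in fibroblasts. The middle 50% of cells did not overlap between libraries in neutrophils alone, where the primary cells ended at 6.25% and the chemoresistant cells began at 7.22%. Over all barcodes kept, the members gave 21012769 primary and 31116854 chemoresistant UMIs.

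Within classes the share was higher in the chemoresistant library in each subset of T cells, dendritic cells, B cells, phagocytes and tumour cells given here. T cells with a UMI of Lef1 or Tcf7, factors of naive and memory T cells, had 23.6% in the primary and 26.1% in the chemoresistant library, a difference of 2.50 points. T cells with neither had 16.9% and 20.9%, a difference of 3.95 points. Both differences were larger than the 0.66 points of the whole class. The cells with either gene, which had the higher share, made up 76.9% of primary but 38.1% of chemoresistant T cells, at median depths of 4919 and 1806.5 UMIs. This split was chosen after seeing the data. Type 1 dendritic cells (Xcr1, Clec9a, Naaa) went from 13.9% to 25.6% and migratory dendritic cells (Ccr7, Fscn1, Ccl22) from 17.9% to 22.0%. Among B cells, resting cells with Ighd and no Cd83 or Cd69 had 23.5% and 27.4%, and cells with either activation gene had 23.7% and 28.3%. Cells called resting made up 14.0% of primary and 51.2% of chemoresistant B cells. Median depths were 3669 and 1484 UMIs in resting cells and 4435.5 and 1735 in cells with either activation gene. The B and T cell splits rest on whether a UMI was seen, and the part of depth in these proportions was not tested. Phagocytes with Arg1, an enzyme of suppressive macrophages, had 12.7% and 17.3%, and those without it 14.2% and 18.7%. Cells with a UMI of the cycling genes Mki67, Top2a or Cdk1 stood above the others by less than the libraries differed in tumour cells (15.5% against 13.8% primary, 19.4% against 18.5% chemoresistant).

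Depth and signs of cell quality differed between the libraries in the same classes. Median depth per cell was lower in the chemoresistant library in every class but fibroblasts, with 4314 against 1522 UMIs in B cells and 2413.5 against 907 in neutrophils. Cells in which ribosomal proteins gave under 5% of UMIs made up 54.2% of primary and 1.95% of chemoresistant neutrophils, 21.3% and 1.65% of dendritic cells and 9.62% and 4.03% of phagocytes. In the 45 such primary dendritic cells, Malat1 gave 10.9% of UMIs and mitochondrial genes 6.86%, against 2.68% and 2.51% in the other primary dendritic cells. The 726 such primary neutrophils did not stand apart in this way, with 2.59% Malat1 and 1.44% mitochondrial UMIs against 2.297% and 1.51% in the others. Across cells of a class and library the share went with Malat1 at r = -0.14 to -0.72 and with 16 other TOP genes at r = 0.50 to 0.91, as descriptions over cells that share a library and a denominator. With barcodes of at most 1% Malat1, a limit set after seeing the data, the difference was 3.90 points in tumour cells, 3.46 in phagocytes, 6.36 in neutrophils, 4.49 in dendritic cells, 3.26 in B cells, -1.84 in T cells and 7.97 in fibroblasts. Haemoglobin Hbb-bs, a red cell message, was seen in 19.7% of primary and 33.6% of chemoresistant B cells. Its level there went the other way, with 422 and 270 per 1000000 UMIs. In the other classes its level was higher in the chemoresistant library, with 38.8 and 1441 per 1000000 UMIs in T cells. The part of Hbb-bs in the shares was not tested.

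**Figure D2:**
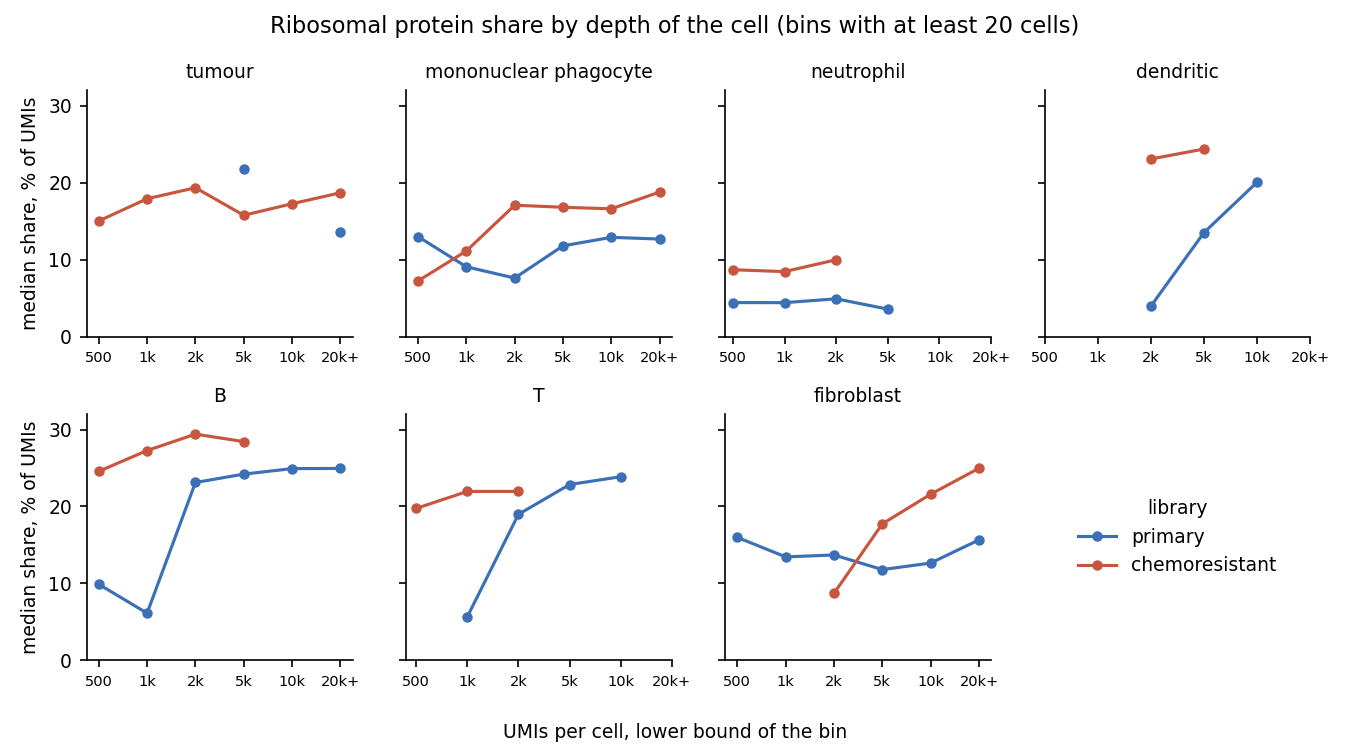
Median ribosomal protein share per cell (vertical axis, percent of UMIs) against UMIs per cell (horizontal axis, lower bound of each bin), by class and library, for bins of at least 20 cells. Chemoresistant neutrophils, B cells, T cells and dendritic cells lie above primary cells in every bin the libraries share. Chemoresistant tumour cells lie below primary ones at 5000 to 10000 UMIs and above them from 20000 UMIs.

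At equal depth most classes kept the direction, but the tumour class did not in every bin. Of cells with 5000 to 10000 UMIs, 27 primary tumour cells had a summed share of 20.7% and 249 chemoresistant cells one of 15.3%. From 20000 UMIs upwards, 99 primary cells had 14.1% and 758 chemoresistant cells 19.3%. B cells with 2000 to 5000 UMIs, in contrast, had 23.1% in 1811 primary and 29.7% in 619 chemoresistant cells, and phagocytes in the same bin 8.65% in 331 and 17.3% in 1524 cells. The shallowest phagocytes, with 500 to 1000 UMIs, went the other way, with 12.6% in 50 and 9.57% in 105 cells. T cells with 1000 to 2000 UMIs had 7.33% in 52 and 21.8% in 110 cells, and those with 2000 to 5000 UMIs 20.3% in 436 and 22.7% in 101 cells. Fibroblasts with 2000 to 5000 UMIs had 12.6% in 22 and 11.9% in 40 cells, and from 20000 UMIs 15.2% in 42 and 25.6% in 45 cells.

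In tumour cells most members were modestly higher in the chemoresistant library, and the group moved with little change of its own makeup. Levels were compared in CPM, a gene's part of the UMIs summed over the class multiplied by 1000000, with 5 CPM added before ratios, and a fold of 1.5 was used as the mark. All 77 genes had at least 10 CPM, as the mean of both libraries, in each of the 7 classes. In the tumour class 7 of 77 were at least 1.5-fold higher and 0 lower, against 3.62% of all 8760 genes at that level higher and 8.39% lower. The median log2 ratio of the members was 0.36 and that of all genes -0.13. Centred on the median of all genes, 22 members were past the mark, but the share of all genes past it was not counted with this centring. The 40S median was 0.40 and the 60S median 0.34. These tumour results turned with the cells taken: with no marker of another class at 2 or more UMIs, 37 and 302 cells remained and the median was -0.11, and with 2000 to 10000 UMIs (46 and 415 cells) it was -0.41. In tumour cells without Lrrn4 or Gpm6a (51 and 466) it was 0.19. Those cells had median depths of 3831 and 6681 UMIs, against 32478 and 20841.5 in cells with either gene, so depth and these genes were not separated. The last 2 choices were also made after seeing the data.

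Rps4x, an X-linked 40S protein (ENSMUSG00000031320, chrX:102184941-102189394, GRCm38), led the tumour class. Its primary level of 1867 CPM (1829 to 1905) stood against a chemoresistant level of 3013 CPM (2995 to 3031), 1.61-fold. Rpl29, a small 60S protein, had 783 and 1260 CPM (1.60-fold), and Rpl12, part of the stalk base, 1255 and 1979 CPM (1.57-fold). Rpl8, a 60S protein near the peptidyl transferase centre, had 2244 and 3526 CPM (1.57-fold). Rpsa, the 40S protein that is also known as a laminin receptor precursor, had 2105 and 3283 CPM (1.56-fold). The stalk protein Rplp1 (2411 and 3693 CPM) and the 40S protein Rps15a were the other two past 1.5-fold. For the genes given here the intervals of the 2 libraries did not overlap. With 2000 to 10000 UMIs per cell, the log2 ratios of Rps4x, Rpl12, Rpl8, Rpsa and Rplp1 turned to -0.18, -0.02, -0.11, -0.07 and -0.02.

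Lowest in the tumour class was Rpl23a (ENSMUSG00000058546, chr11:78180932-78183584), a 60S protein at the mouth of the peptide exit tunnel. Primary cells had 1045 CPM (1016 to 1074) and chemoresistant cells 888 CPM (879 to 898), a ratio of 0.85. Taken as a part of all ribosomal protein UMIs, called the pool below, it went from 0.724% to 0.475%, the only member of the tumour class past 1.5-fold in the pool in either direction. Rps15, a 40S protein needed for export of the subunit precursor, had 787 and 718 CPM. Rps28 had 1898 and 1771 CPM. Rpl4, a 60S protein that lines the exit tunnel, had 526 and 503 CPM. Rpl5, which binds 5S ribosomal RNA and the p53 regulator Mdm2, had 986 and 955 CPM. The intervals of the 2 libraries overlapped for Rpl4 and Rpl5. The pool ratios of these 4 genes were 0.70, 0.72, 0.74 and 0.75, and 63 of 77 members stayed within 1.2-fold in the pool.

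**Figure D3:**
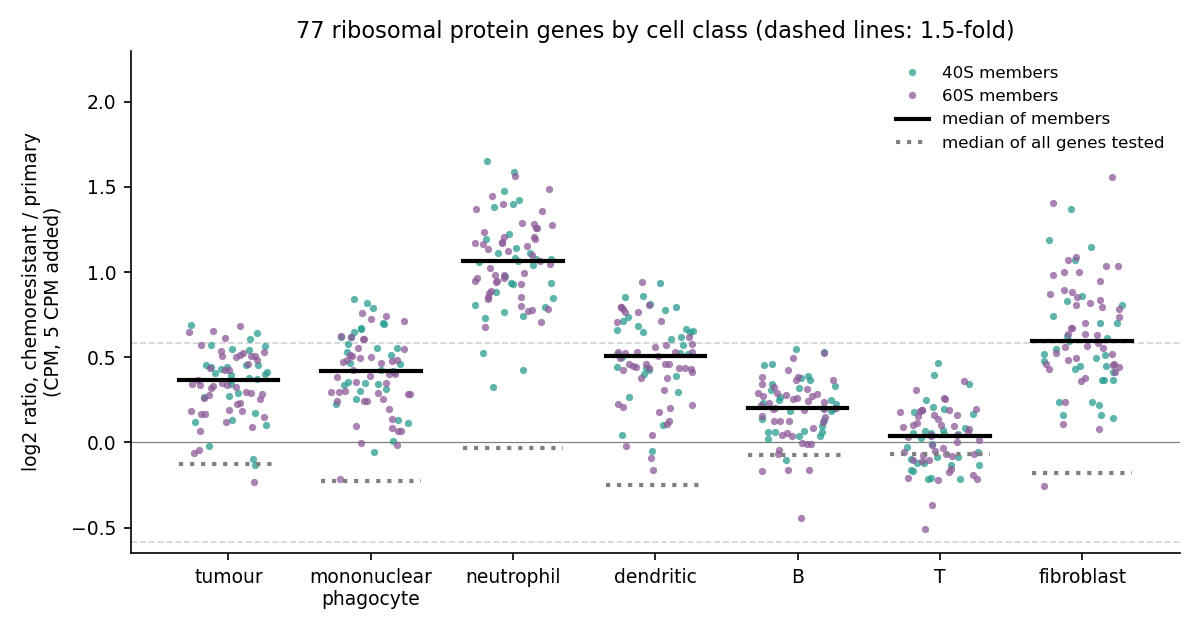
Log2 ratio of CPM, chemoresistant over primary, with 5 CPM added (vertical axis) for each of the 77 genes (points, coloured by subunit) in each class, with the median of the members (black line) and of all genes tested (dotted line). Dashed lines mark 1.5-fold; the members' median lies above that of all genes in each of the 7 classes, by 1.10 in neutrophils and 0.10 in T cells.

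Mononuclear phagocytes showed the same pattern in larger cell numbers. There 18 of 77 members were at least 1.5-fold higher and 0 lower, against 2.1% and 7.88% of all 8426 genes. The median log2 ratio was 0.42, against -0.23 for all genes. Once centred on all genes, 44 members were past the mark, with the share of all genes not counted. Rps4x again led, with a primary level of 1511 CPM (1498 to 1524) and a chemoresistant level of 2712 CPM (2694 to 2731), 1.79-fold. Rps27a, a 40S protein made as a fusion with ubiquitin, had 2502 and 4412 CPM (1.76-fold). Rpl23a was again lowest, at 826 and 711 CPM, and it went from 0.639% to 0.406% of the pool, the 1 member past 1.5-fold there. With at most 1% Malat1, 4 members were past 1.5-fold, and with 2000 to 10000 UMIs 36. The shares of all genes in these settings were not counted.

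Neutrophils had the highest median log2 ratio of the 7 classes, though not the largest difference in share points. Of the 77 members, 74 were at least 1.5-fold higher in the chemoresistant library and 0 lower, against 15.3% and 12.7% of all 8572 genes, and the median log2 ratio was 1.06 against -0.03. With no marker of another class at 2 or more UMIs it was 0.767, and that of fibroblasts 0.769. Rps4x went from 432 CPM (410.5 to 454) to 1369 CPM (1292 to 1450), 3.15-fold, and Rps18 from 592 to 1790.4 CPM, 3.01-fold. Rps29, a small zinc-binding 40S protein, had 1619 and 2028 CPM (1.25-fold), and Rps27, another zinc-binding 40S protein, 1181 and 1587 CPM (1.34-fold). In the pool Rps29 went from 3.01% to 1.82% and Rps27 from 2.20% to 1.42%, while Rps4x went from 0.803% to 1.23%. These 3 genes were the members past 1.5-fold in the neutrophil pool. A few deep cells weighed on the sums: without the 5% of cells with most UMIs the difference in share was 3.65 points, 61 members were past 1.5-fold in level and 0 in the pool. The share of all genes was not counted there.

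In dendritic cells 26 of 77 members were at least 1.5-fold higher and 0 lower, against 4.4% and 20.9% of 7948 genes, with a median log2 ratio of 0.51 against -0.25. The stalk protein Rplp1 led with 2972 CPM (2896 to 3049) and 5715 CPM (5584 to 5848), 1.92-fold. Rps14, a 40S platform protein, had 2340.5 and 4476 CPM (1.91-fold). Rpl23a had 945 and 843 CPM and Rpl31, a 60S protein beside the exit tunnel, 693 and 650.3 CPM, and both were past 1.5-fold lower in the pool. The count of higher members was 3 with at most 1% Malat1 and 61 with 2000 to 10000 UMIs, with the shares of all genes not counted.

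B cells carried the highest share, yet no single gene differed by 1.5-fold in level. Of 77 members, 0 were past the mark in either direction, against 4.8% of 8442 genes higher and 7.43% lower. A ratio above 1 was found in 67 members, with the share of all genes above 1 not counted. The median log2 ratio was 0.21 against -0.07. Rps27a (3657 and 5356 CPM) and Rps14 (3325 and 4805 CPM) had the highest pool ratios, with level ratios of 1.46 and 1.44. Rpl4 had 792 CPM (778 to 805) and 581 CPM (559 to 602), and it went from 0.335% to 0.209% of the pool, the 1 member past 1.5-fold there. Rplp0, the scaffold of the stalk, had 2758 and 2456 CPM.

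T cells taken as a whole had the smallest differences, while both subsets above differed by more in share. There 0 of 77 members were past 1.5-fold in level or in the pool, against 12.1% of 8664 genes higher and 15.1% lower. A ratio above 1 was found in 43 of 77 members, and the share of all genes above 1 was not counted. The median log2 ratio was 0.04 against -0.07. Rps27a (3373 and 4657 CPM) and Rps26 (2035 and 2675 CPM) had the highest pool ratios, and Rpl4 (768 and 539 CPM) and Rpl36a (1246 and 964 CPM) the lowest. Without cycling cells the median was -0.01, and with at most 1% Malat1 it was -0.15.

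In fibroblasts, whose marker genes differed between libraries as given above, 39 of 77 members were at least 1.5-fold higher and 0 lower, against 12.7% and 27% of 9053 genes, with a median log2 ratio of 0.60 against -0.18. Rpl37, a small zinc-binding 60S protein, had 1592 CPM (1546 to 1639) and 4704 CPM (4634 to 4775), 2.95-fold. Rpl30 had 1884 and 4998 CPM (2.65-fold). Rpl4 had 581 and 485 CPM, and Rpl7a, another 60S protein, 788 and 833 CPM. In the pool Rpl37, Rpl30 and Rps26 were past 1.5-fold higher and Rpl4, Rpl7a and Rpl37a past 1.5-fold lower.

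The stalk proteins, Rpsa and Rps4x were each followed through all 7 classes. Rplp0 had log2 ratios of 0.54 in tumour cells, 0.51 in phagocytes, 1.18 in neutrophils, 0.53 in dendritic cells and 1.00 in fibroblasts, against -0.17 in B and -0.08 in T cells. Rplp1 ran from 0.00 in T cells to 1.17 in neutrophils, and Rplp2, its partner in the stalk, from -0.06 to 0.71 in the same classes. Rpsa ran from 0.03 in T cells to 1.23 in neutrophils. Rps4x ran from -0.08 in T cells to 1.65 in neutrophils. T cells were the lowest class for Rplp1, Rplp2, Rpsa and Rps4x, B cells for Rplp0, and neutrophils the highest for all 5.

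The makeup of the pool differed between cell classes, and partly in the same way in both libraries. Each member's level within the pool was centred on its mean over the 7 classes of a library. Over 539 points (77 genes in 7 classes) these centred levels correlated between libraries at r = 0.74, a description of points that share cells and pools. The class with the highest level was the same in both libraries for 36 of 77 genes and the class with the lowest for 33. The median gene ranged 1.54-fold over classes in the primary and 1.5-fold in the chemoresistant library. Only Rps29 and Rps27 ranged at least 2-fold in both.

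Rps29 was low in tumour cells. It made up 0.902% of the pool of primary tumour cells, against 1.46% in fibroblasts, 1.91% in T, 1.92% in B, 2.40% in dendritic cells, 2.86% in phagocytes and 3.01% in neutrophils. In the chemoresistant library it was 0.757% in tumour cells and between 1.01% and 2.28% in the others. Rps27 made up 1.03% of the primary and 0.874% of the chemoresistant tumour pool but 1.93% and 2.12% in B cells. Rps24, a 40S protein with spliced variants, was highest in B cells (3.20% and 3.37%) and lowest in tumour cells (1.63% and 1.72%) in both libraries.

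Rpl3, a core 60S protein, was highest in tumour cells in both libraries, at 1.26% and 1.15%. Rps2 was highest in primary tumour cells (1.95%) and chemoresistant fibroblasts (2.11%), and lowest in primary dendritic cells (1.00%) and chemoresistant B cells (0.989%). Rpl41, the smallest member, was highest in neutrophils in both (2.73% and 2.44%). Rps9 was lowest in fibroblasts in both (1.43% and 1.23%). Rpl37 was highest in primary tumour cells (2.37%) and chemoresistant fibroblasts (2.11%). Genes of the 40S subunit together gave 41.7% of the pool in primary and 42.3% in chemoresistant tumour cells, and 47.1% and 47.5% in B cells.

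**Figure D4:**
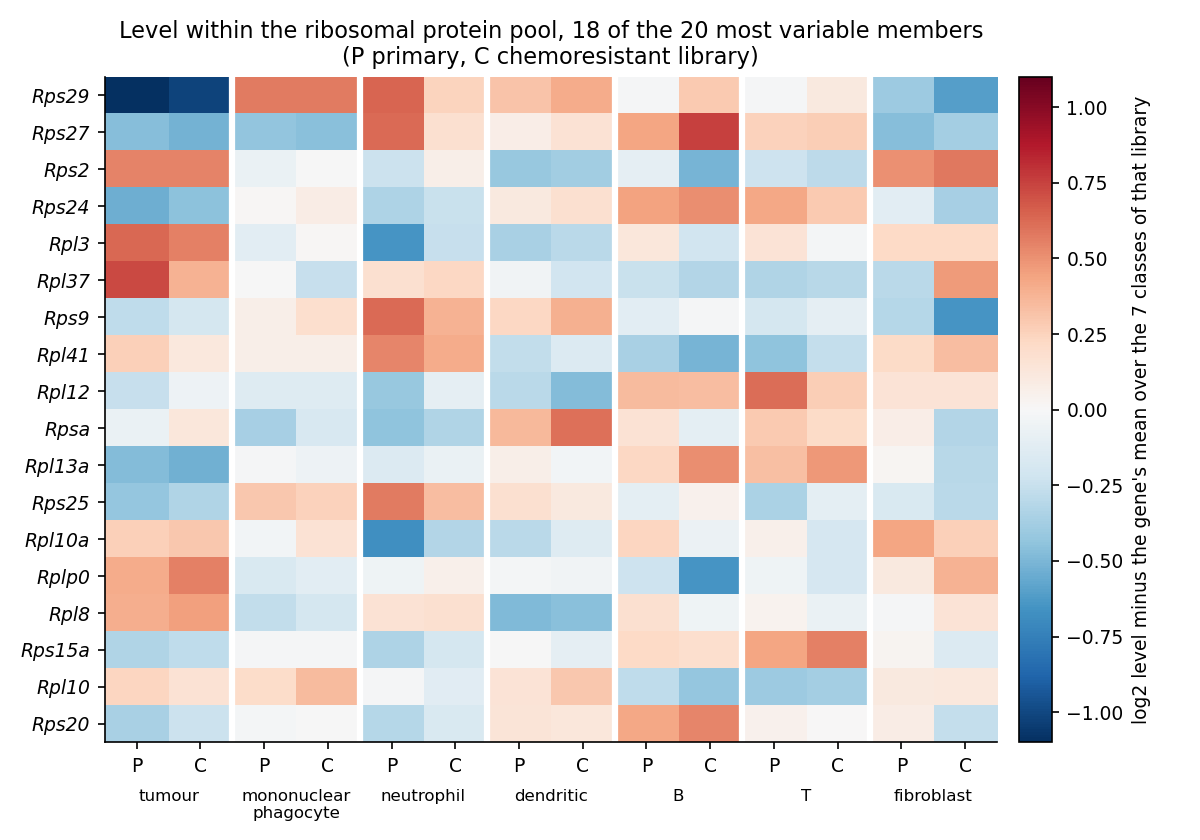
Log2 level within the ribosomal protein pool minus the gene's mean over the 7 classes of that library (colour), for 18 of the 20 genes that vary most over classes (rows), by class and library (columns, P primary and C chemoresistant). Rps29 is low in tumour cells of both libraries, at 0.902% and 0.757% of the pool, and Rps24 is high in B cells of both, at 3.20% and 3.37%.

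Coding length, a property the choice of genes did not use, correlated with the pool ratios in opposite directions in neutrophils and phagocytes and in B cells. By r the correlation was weaker in the other classes. Coding lengths ran from 75 nucleotides (Rpl41) to 1257 (Rpl4) in GENCODE vM21. Across the 77 genes the log2 pool ratio correlated with log coding length at r = 0.43 in neutrophils and 0.35 in phagocytes, and at r = -0.34 in B cells, as descriptions over genes measured in the same pools. It was 0.27 in tumour cells, 0.13 in dendritic cells, -0.11 in T cells and -0.13 in fibroblasts. The 27 shortest members had median log2 pool ratios of -0.16 in neutrophils and -0.14 in phagocytes, and the 26 longest 0.12 and 0.10. In B cells the medians were -0.03 for the shortest and -0.14 for the longest. They lay further apart in tumour cells (-0.18 and 0.05) and dendritic cells (-0.10 and 0.04). For transcript GC content r lay between -0.10 and 0.18 in all 7 classes.

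**Figure D5:**
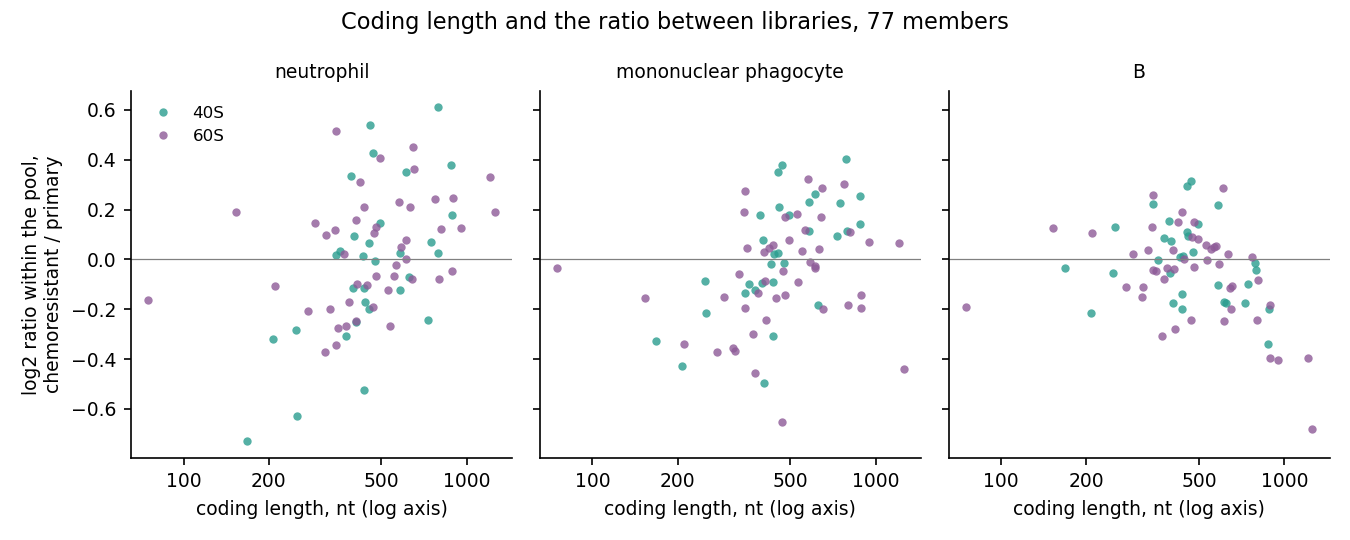
Log2 ratio within the ribosomal protein pool, chemoresistant over primary (vertical axis), against coding length in nucleotides (horizontal log axis) for the 77 genes (points, coloured by subunit) in neutrophils, phagocytes and B cells, the classes with the strongest correlations of the 7. Points climb with length in neutrophils (r = 0.43) and phagocytes (r = 0.35) and decline in B cells (r = -0.34).

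Members with and without a pyrimidine run near the annotated start had medians closer to each other in tumour and B cells than in phagocytes, dendritic cells and T cells. A run could begin up to 30 bases after the start, so these groups do not separate TOP messages from others. In the tumour class the median log2 ratio was 0.34 for the 37 genes with a run, such as Rps27 and Rps24 above, and 0.38 for the 20 without, such as Rps4x and Rpsa. It was 1.06 and 0.98 in neutrophils, and 0.24 and 0.19 in B cells. The median with a run was the lower in phagocytes (0.34 and 0.46), dendritic cells (0.45 and 0.55) and fibroblasts (0.55 and 0.61). In T cells the 2 medians were 0.05 and -0.07. For the 14 genes with a run that began within 5 bases of the start, against the other 43, the medians were 0.36 and 0.34 in tumour cells, 1.06 and 1.06 in neutrophils, and 0.32 and 0.18 in B cells. For the ETS-type motif the tumour medians were 0.34 with (23 genes) and 0.35 without (34 genes).

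Other TOP messages had nearly the same median as the ribosomal proteins in tumour cells. The list held 16 translation factors and related genes, of which 0 were past 1.5-fold in tumour cells (3.62% of all genes were higher and 8.39% lower) and the median log2 ratio was 0.30. Btf3, of the nascent chain complex, was highest (709 and 979 CPM) with Eef1d, an exchange factor of elongation factor 1 (504 and 688 CPM). Eef2, the translocation factor, was lowest (657 and 523.5 CPM), followed by Eif4b (151 and 140 CPM). In neutrophils 15 of the 16 were at least 1.5-fold higher (median 0.93), against 15.3% of all genes, and in fibroblasts 8 (0.58), against 12.7%. In dendritic cells 3 were higher and 1 lower (0.36), against 4.4% and 20.9% of all genes. The counts of higher genes were 1 in phagocytes (0.30), 1 in T cells (0.14) and 0 in B cells (0.06), against 2.1%, 12.1% and 4.8% of all genes.

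The factors that build ribosomes did not share the difference in tumour cells. Of 27 biogenesis genes at 10 CPM or more, 1 was past 1.5-fold higher and 1 lower, against 3.62% and 8.39% of all genes. The higher gene was Nop16 (20.9 and 36.9 CPM) and the lower Mybbp1a (89.2 and 57.0 CPM). The median log2 ratio of the list was -0.14, near the -0.13 of all genes. Nop10, a snoRNA-particle protein, followed Nop16 at 172 and 254 CPM, and Tcof1, a factor of ribosomal RNA synthesis, followed Mybbp1a at 23.3 and 15.2 CPM. The median was -0.30 in phagocytes, -0.34 in B cells, -0.27 in T cells, -0.35 in dendritic cells, 0.09 in fibroblasts and 0.41 in neutrophils, where 9 of 25 were past 1.5-fold higher and 0 lower, against 15.3% and 12.7% of all genes and an all-gene median of -0.03.

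Of 18 genes of mTOR signalling and translation control in tumour cells, 1 was past 1.5-fold higher and 1 lower. Of all genes, 3.62% were higher and 8.39% lower. The median log2 ratio of the list was -0.16, near the -0.13 of all genes. Eif4ebp1, the cap-binding repressor that mTORC1 phosphorylates, had 52.6 and 124 CPM (log2 ratio 1.16). Myc, a transcription factor known for driving ribosome genes, had 120 and 39.5 CPM (-1.48). Mtor itself had 57.1 and 81.5 CPM (0.48), and Eif4g1, the scaffold of the cap-binding complex, 123 and 91.0 CPM (-0.41). Eif4ebp1 was also the highest of the list in phagocytes (0.78), B cells (0.87), T cells (1.35) and fibroblasts (2.56). Myc was lowest in B cells as well (-1.45).

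Paralogs and partners of the ribosomal proteins were measured beside them, 11 of the 12 listed being found. Fau, whose protein is cut to a ubiquitin-like part and a 40S protein, had 4218 and 6167 CPM in tumour cells (log2 ratio 0.55). Rack1, a scaffold on the 40S head, had 1432 and 1969 CPM (0.46). Rps27l, a p53-responsive paralog of Rps27, had 347 and 531 CPM (0.61), and led the list in B cells (0.94) and T cells (1.09). Rpl36al had 473 and 618 CPM (0.38), Rpl22l1 817 and 832 CPM (0.03), and Rpl7l1 62.0 and 57.0 CPM (-0.11). Rps27rt, a near copy of Rps27 whose reads may be shared with it, had 45.4 and 52.1 CPM (0.18). Rpl3l, Rpl10l and Rpl39l stayed under 10 CPM. Copies named -ps, Rps23rg1 and Rps27rt together held 0.0935% and 0.107% as many UMIs as the members.

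Classes with fewer cells are given as values alone. Endothelial cells had a share of 10.2% in 72 primary and 17.2% in 6 chemoresistant cells, plasma cells 9.25% in 42 and 16.5% in 4, and natural killer cells 18.9% in 17 and 27.2% in 9. Erythroid cells had 2.55% in 43 and 11.9% in 140 cells. Acinar cells (36, 7.02%), enterocytes (13, 4.88%) and adipocytes (6, 11.6%) of the primary library are given without a counterpart.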

How the data were processed

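The 2 10x Genomics libraries, 1 per group, were analysed. The authors deposited raw UMI counts, whole numbers for each gene in each barcode, made with Cell Ranger 8.0.1 on mm10 per the submitters' processing notes; its gene annotation release is not stated in the sources used here. Features and barcodes are names only. Barcodes were kept with at least 500 UMIs, 250 genes and at most 20% mitochondrial UMIs (141334623 and 158118781 UMIs before filtering). No doublet caller was run: barcodes with markers of more than 1 class were left unassigned, and an alternative left out the 5% deepest. Counts were summed per class and library and scaled to CPM. With 1 library per group there is no test; intervals are exact (Poisson for CPM, Clopper-Pearson for shares) at 95%, cover counting error only, and say nothing of variation between animals.

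Named genes were, within the pool, the 5 highest and 5 lowest in tumour cells, the 2 highest and 2 lowest in the other classes, the 10 most variable over classes, Rplp0, Rplp1, Rplp2, Rpsa and Rps4x, the 2 highest and 2 lowest of each gene list in tumour cells, and every paralog or partner; results of a few of these genes are not reported here. Others (Rps15a, Rps26 and Rpl37a in lists of members past 1.5-fold) were chosen after their values were seen. Members, lists and classes were chosen with earlier results of these data known. Class markers were the following kinds: epithelial, phagocyte, neutrophil, dendritic, B, plasma, T, natural killer, fibroblast, endothelial, enterocyte, acinar, erythroid and adipocyte. Coding length and gene positions came from GENCODE vM21, matched by gene identifier for all 77 members, and promoters from RefSeq (GRCm38.p6). Python 3.11.15, numpy 2.4.6, scipy 1.17.1 and pandas 2.3.3 were used, and the ratios and thinning were tested on simulated counts.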

Additional observations from a re-analysis of the deposited data

How the results depend on the processing

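Medians and shares have no test here. A difference in share counted as moved when it left the bounds set by the 95% counting intervals of both libraries. A median counted as moved when it left its 95% binomial interval over members, and a count when it changed by over 1.5 times. The range over classes has no interval of its own and was judged by the width of the tumour class interval. No cause of a move was tested. 5 alternatives, named as added, were chosen after seeing the data. In no alternative was the share of all genes past 1.5-fold counted beside that of the members. Direction was lost in tumour and T cells only. The difference in share, in points, turned in tumour cells to -1.57 with no marker of another class at 2 UMIs and to -4.85 at 2000 to 10000 UMIs (added), and in T cells to -1.84 with at most 1% Malat1 (added). The median log2 ratio turned in the same settings to -0.11, -0.41 and -0.15, and in T cells without cycling cells to -0.0056. Rps4x in tumour cells turned to -0.056 in the first of these settings, and Rps4x, Rpl12, Rpl8, Rpsa and Rplp1 to -0.181, -0.0183, -0.108, -0.0655 and -0.024 at 2000 to 10000 UMIs.

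Other moves of the difference in share kept direction. With at least 1000 UMIs it was 7.09 in neutrophils and 4.49 in B cells. With at most 10% mitochondrial UMIs it was 4.03 in tumour cells, 5.92 in neutrophils, 7.25 in dendritic cells and 8.66 in fibroblasts, and with 4 markers 4.34 in tumour and 4.31 in B cells. With no other marker at 2 UMIs it was 3.90 in phagocytes, 3.92 in neutrophils and 6.23 in dendritic cells. In the order tumour, phagocyte, neutrophil, dendritic, B, T, fibroblast, leaving out classes that did not move, it was 4.04, 4.29, 3.65, 7.62, 0.305 and 8.87 without the deepest 5% (B not moved), 4.55, 5.96, 7.10, 4.39, 0.497 and 8.90 without mitochondrial genes and Malat1 in the total (tumour not moved), 2.35, 4.42, 3.94, 8.61, 1.43 and 6.56 as a mean over cells (B not moved), and 2.38, 4.29, 8.69, 4.74, 1.68 and 6.62 thinned to 1000 UMIs (phagocytes not moved). Without cycling cells it was 4.68, 4.31, 5.49, 7.66, 4.05, 0.228 and 9.20, with markers counted at 2 UMIs (added) 4.07, 4.56, 6.29, 7.24, 4.62, 0.159 and 9.11, and without the erythroid list (added) 4.50, 4.65, 5.55, 7.16, 4.03 and 8.94 (T not moved). At most 1% Malat1 gave 3.90, 3.46, 6.36, 4.49, 3.26 and 7.97 outside T cells, and 2000 to 10000 UMIs 5.76, 7.37, 11, 5.76 and 5.93 outside tumour and T cells. Tumour cells without Lrrn4 or Gpm6a (added) gave 2.79.

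Medians that moved were 1.2 in neutrophils with 1000 UMIs, 0.345, 0.767 and 0.769 in phagocytes, neutrophils and fibroblasts with no other marker at 2 UMIs, 0.763 in neutrophils without the deepest 5%, 0.216, 0.849, 0.66, 0.0741 and 0.49 in tumour cells, neutrophils, dendritic cells, T cells and fibroblasts thinned, and 0.49, 0.647, 0.759, 0.277, 0.103 and 0.775 outside neutrophils centred on all genes. They were 0.289, 0.232, 0.149 and 0.418 in phagocytes, dendritic cells, B cells and fibroblasts with at most 1% Malat1, 0.571, 1.23, 0.871, 0.297 and 0.503 outside tumour and T cells at 2000 to 10000 UMIs, and 0.185 in tumour cells without Lrrn4 or Gpm6a.

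Counts of members 1.5-fold higher became 0, 5, 1 and 59 (tumour, phagocyte, B, fibroblast) with no other marker at 2 UMIs, 2, 44, 1 and 1 (tumour, dendritic, B, T) thinned, 12 and 1 (tumour, B) without cycling cells, 22, 44, 60, 3 and 62 (tumour, phagocyte, dendritic, B, fibroblast) centred, 4 (tumour) with markers at 2 UMIs, 2, 4 and 3 (tumour, phagocyte, dendritic) with at most 1% Malat1, 0, 36, 61 and 1 (tumour, phagocyte, dendritic, B) at 2000 to 10000 UMIs and 3 without Lrrn4 or Gpm6a. Counts of members lower became 1 in tumour cells with no other marker at 2 UMIs, 1 in fibroblasts thinned, 1 in T cells with markers at 2 UMIs, 1 each in B and T cells with at most 1% Malat1, and 12 in tumour cells at 2000 to 10000 UMIs. Counts past 1.5-fold in the pool became 0 in tumour cells with at most 10% mitochondrial UMIs, without the deepest 5% (neutrophils also 0), thinned and without the erythroid list, and 2, 0, 1 and 1 (tumour, phagocyte, dendritic, T) with no other marker at 2 UMIs. They became 1 in T cells with markers at 2 UMIs, 2, 1 and 2 (tumour, neutrophil, B) with at most 1% Malat1, 0, 9 and 6 (tumour, neutrophil, dendritic) at 2000 to 10000 UMIs, and 2 without Lrrn4 or Gpm6a.

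The range of the share over classes, given as primary and chemoresistant, moved to 17.6 and 17.9 with no other marker at 2 UMIs, 18.5 and 19 without the deepest 5%, 19.1 and 17.5 without mitochondrial genes and Malat1 in the total, 17.8 and 18 as a mean over cells, 17.9 and 18.4 thinned, 18.4 and 17 without cycling cells, 18.1 and 16.5 with markers at 2 UMIs, 20.3 and 17 with at most 1% Malat1, and 18.4 and 16.8 at 2000 to 10000 UMIs. It moved in the primary library alone to 18.4 with at most 10% mitochondrial UMIs, and in the chemoresistant library alone to 15.7 with 1000 UMIs and, by less than the last printed digit, to 16.7 with 4 markers. Adding 1 or 20 CPM, or dropping the minimum, moved no count or median. No paired analysis was possible because each group has 1 library and the result comes from no test, and no library could be left out. Depth limited the chemoresistant neutrophils and B cells most, with medians of 907 and 1522 UMIs.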
